A study of Mus musculus with 40 samples.

Results

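The step from the haematopoietic stem cell (HSC) to the lymphoid-primed multipotent progenitor (LMPP) was followed in bone marrow without Mbd3. It was read from 10 of the 40 libraries of the study, taken as every HSC and every LMPP library of the 5 Mbd3-deleted mice, and the libraries of 1 mouse were paired by its number. The study profiled RNA in pools of sorted cells from 5 mice with both Mbd3 alleles deleted (genotype Mbd3_Del/Del, called Mbd3del) and from 5 controls (Mbd3_Flox/Flox, alleles flanked by recombination sites and not deleted). HSCs, LMPPs and 2 later lymphoid progenitors were taken from each animal. All mice were of the C57BL6/129Ola background and 46 to 51 days old. HSCs were gated as CD45+ CD150+ CD48- EPCR+ cells and LMPPs as cells negative for Lin, IL-7Ra and B220, positive for Sca-1 and c-Kit, and Flt3hi. Neither the recombinase and its promoter nor the exons removed are named in the labels. The titles of the Mbd3del LMPP libraries speak of a floxed allele while their genotype field gives Del/Del. That field was followed and checked against Mbd3 itself. An HSC pool held 150 cells and an LMPP pool 100 by the sample labels and the reverse by the design text, so population and cell number cannot be told apart.

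HSCs hold the long-term capacity to rebuild the blood and are mostly quiescent. LMPPs have lost most capacity to form megakaryocytes and red cells, keep myeloid and lymphoid capacity, carry the cytokine receptor Flt3 at a high level and start to transcribe lymphoid genes such as Dntt and Rag2. Mbd3 encodes a subunit of NuRD, a complex that joins nucleosome remodelling with histone deacetylation and acts on promoters and enhancers of genes that change during differentiation.

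The 10 libraries held 2974305 to 7500055 gene counts and 13488 to 15442 detected genes. Detected genes, gene counts, the mitochondrial share of counts and the share of the 10 most counted genes were compared between HSCs and LMPPs by two-sided exact permutation tests (5 against 5, smallest possible p 0.00794). These tests did not use the pairing by mouse, and none of the 4 measures passed (adjusted p 0.587 to 0.651). With 5 libraries each, this does not show that the measures were alike. The mitochondrial share was 3.06% and 3.09% in the HSC libraries of mouse10365 and mouse10384 and 5.56% to 6.53% in the other HSC libraries. The first principal component took 53.5% of the variance and separated all HSC from all LMPP libraries. Levels are given as CPM (gene counts scaled to equal library totals), and values of the 5 mice are always in the order mouse10360, mouse10361, mouse10365, mouse10376 and mouse10384.

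Mbd3 (ENSMUSG00000035478.14, chr10:80392539-80399550, GRCm38) was almost unread in both populations of the Mbd3del mice. Its level in HSCs was 0.169, 0, 0.153, 0.205 and 0 CPM, from 3 counts in all. LMPPs had 1.18, 0.533, 0, 0.153 and 0.581 CPM, from 16 counts in all. Every one of these libraries lay below every control library, where Mbd3 averaged 15.7 ± 5.04 CPM in HSCs and 40.4 ± 14.5 CPM in LMPPs (SD, n = 5 each). The counts do not record which exon was read, and Mbd3 was too low for the test of the step in Mbd3del mice.

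Across the step 697 of 11365 tested genes changed (6.13%), of which 303 were higher in LMPPs (2.67%) and 394 lower (3.47%). These shares are the background for every count of called genes in a list below. A gene counted as changed at a Benjamini-Hochberg adjusted p under 0.05 in edgeR's quasi-likelihood test with the mouse as a block. The median absolute log2 change of these genes was 2.71 and the smallest 0.70, against a median log2 change of -0.02 over all tested genes. The 5 HSC and the 5 LMPP libraries did not overlap in CPM for 602 of the 697 genes (86.4%) and for 1049 of all tested genes (9.23%). Among the changed genes 28 had no count in any LMPP library and 8 had none in any HSC library. Leaving out 1 mouse lowered the count of changed genes to 524 without mouse10360, 368 without mouse10361, 329 without mouse10365, 456 without mouse10376 and 540 without mouse10384, and no gene changed direction. In pooled cells, fewer cells with a transcript and less of it per cell cannot be told apart.

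Among transcripts of the surface proteins used for sorting, Slamf1, Procr, Cd48 and Flt3 differed in the direction of the gates. Slamf1, which encodes CD150, was present in HSCs at 71.5, 160.0, 108, 91.8 and 65.3 CPM and had a single count among all LMPP libraries. HSCs were thus higher by 2949-fold (95% counting interval 529 to 116531), with an adjusted p of 1.62e-05. Procr encodes EPCR and stood at 148, 119, 199, 109 and 223 CPM in HSCs and 47.4, 22.7, 26.6, 8.71 and 30.6 CPM in LMPPs. It fell in 5 of 5 mice, by a log2 change of -2.63 ± 0.31 (SE, adjusted p = 0.00105). Cd48 encodes the adhesion receptor CD48, by whose absence HSCs were gated, and went from 1.69, 4.37, 11.3, 1.84 and 2.52 CPM to 483, 472, 563, 509.5 and 691 CPM. The highest HSC library of Cd48, from mouse10365, was far below the lowest LMPP library, and the log2 change was 7.31 ± 0.45 (SE, adjusted p = 1.97e-05). Flt3, the receptor by which LMPPs were selected, went from 20.9, 24.5, 20.2, 34.6 and 66.6 CPM to 746, 635, 1086, 481 and 463 CPM. Its log2 change was 4.48 ± 0.42 (SE, adjusted p = 0.000205). Ly6a, which encodes Sca-1, fell by a log2 change of -0.80 ± 0.19 (SE, adjusted p = 0.0352), and that call was lost without mouse10360, mouse10361, mouse10365 or mouse10376 (adjusted p from 0.0739 to 0.138). Kit, Ptprc (CD45), Il7r and Ly6d did not pass the test, with log2 changes of -0.41, 0.07, -0.62 and -1.21 (adjusted p = 0.225, 0.895, 0.811 and 0.477). CD150 and EPCR transcripts were thus higher in the HSC libraries, and Flt3 and CD48 transcripts in the LMPP libraries. The cells were sorted on these proteins, so the directions are no independent test of the gates. CD48 is not part of the stated LMPP gate, and the transcript of Sca-1, which is, was lower in LMPPs.

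**Figure D1:**
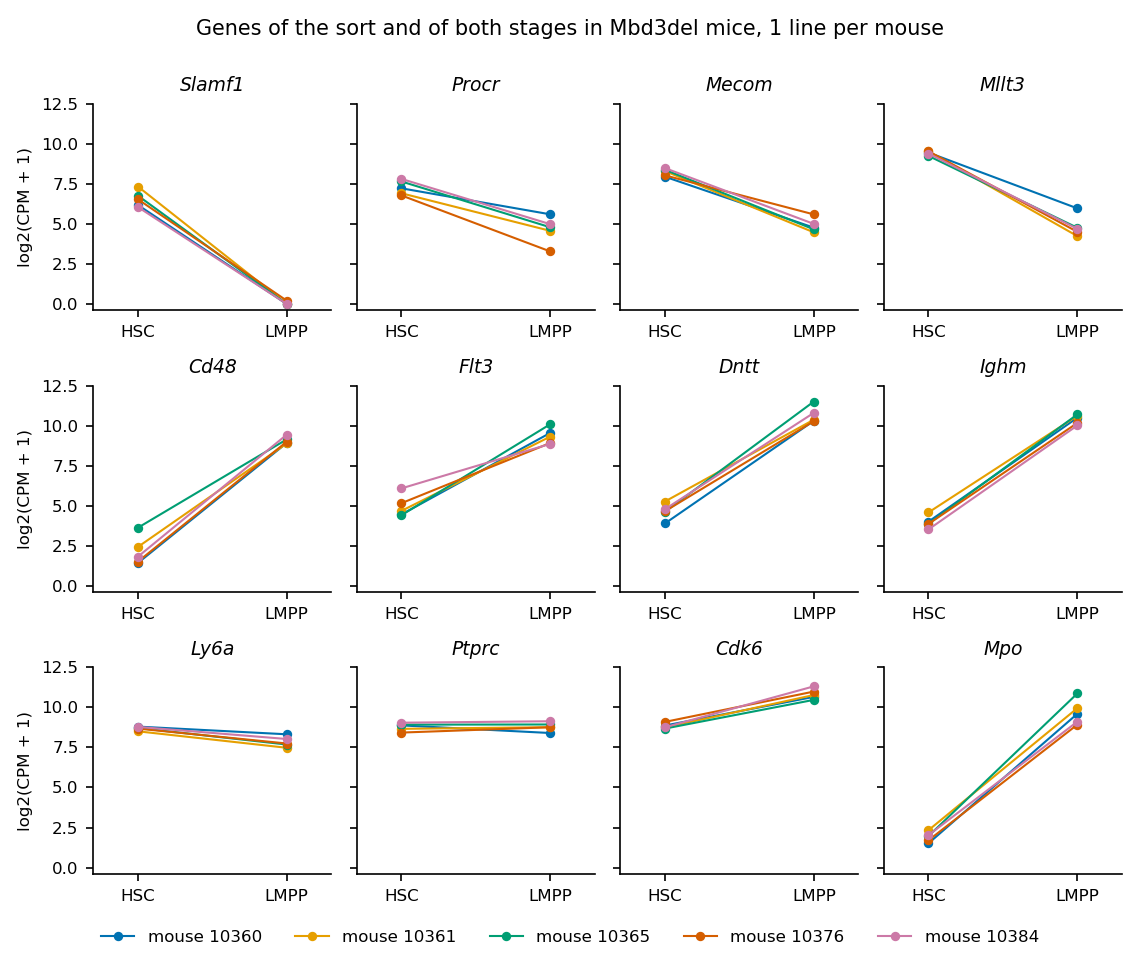
Levels of 12 genes in the HSC and the LMPP library of each Mbd3del mouse, as log2(CPM + 1) on the vertical axis, with 1 coloured line per mouse. Slamf1, Procr, Mecom and Mllt3 slope down in 5 of 5 mice, Cd48, Flt3, Dntt, Ighm, Cdk6 and Mpo slope up in 5 of 5, Ly6a slopes down slightly, and Ptprc is level at 445 CPM in HSCs and 450 CPM in LMPPs on average.

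The largest rises were in genes with few or no counts in HSCs or, like Cd48, a low level there. By size among changed protein-coding genes with at least 20 CPM in the higher population and no overlap, the leading 12 were Sema3d, Mcpt8, Slc16a11, Ubash3a, Btla, Ctsg, Tmprss3, Mpo, Gria2, Chl1, Tespa1 and Cd48. Sema3d, Mcpt8 and Slc16a11 had no count in any HSC library. Sema3d encodes a secreted guidance protein of the semaphorin family and reached 51.5, 31.9, 43.2, 98.8 and 73.0 CPM in LMPPs. It was at least 506-fold higher there (adjusted p = 0.0012), measured against 3 counts over the HSC group. Mcpt8, a serine protease of basophil granules, reached 23.2, 44.3, 18.0, 32.2 and 87.1 CPM and was at least 342-fold higher (adjusted p = 0.00308). Slc16a11, of the monocarboxylate transporter family, reached 38.2, 39.1, 54.3, 7.64 and 22.6 CPM and was at least 279-fold higher (adjusted p = 0.00516). All 3 were thus read in every LMPP library, although Slc16a11 was low in mouse10376.

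Among the other leaders are genes known from lymphocyte signalling and from neutrophil granules. Ubash3a, a suppressor of T cell receptor signalling, and Btla, an inhibitory receptor of lymphocytes, reached 64.3, 67.9, 115, 18.2 and 25.9 CPM and 34.4, 18.9, 24.1, 43.8 and 65.4 CPM. HSCs held 2 counts of Ubash3a and 1 of Btla in all, so the ratios were 755-fold (95% counting interval 209 to 6237) and 929.9-fold (95% counting interval 167 to 36760.2). Tespa1, which acts in thymocyte receptor signalling, went from 0.169, 2.35, 1.38, 1.02 and 2.88 CPM to 239.8, 186, 177, 277 and 285 CPM, a log2 change of 7.42 ± 0.48 (SE, adjusted p = 2.43e-05). Ctsg and Mpo encode cathepsin G and myeloperoxidase of neutrophil granules. Mpo went from 1.85, 4.03, 2.91, 2.25 and 3.06 CPM in HSCs to 775, 988, 1865, 484 and 551 CPM in LMPPs, a log2 change of 8.31 ± 0.36 (SE, adjusted p = 1.85e-06). Ctsg went from 0.674, 1.01, 0, 0.205 and 0 CPM to 184, 81.6, 180.2, 97.9 and 134 CPM, a log2 change of 8.75 ± 0.73 (SE, adjusted p = 9.14e-05). Both granule genes were thus abundant in every LMPP library and close to 0 in every HSC library. The remaining leaders are known mainly from other tissues: Gria2, a glutamate receptor subunit, Chl1, a neural adhesion protein, and Tmprss3, a membrane protease. Gria2 ranged from 10.5 to 56.9 CPM in LMPPs and Chl1 from 1.96 to 37.0 CPM, a wider spread than that of Mpo.

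The largest falls left transcripts of HSCs that were not found, or read only a few times, in LMPPs. The leading 12 were Tgm2, Aldh1a1, Slamf1, Timp3, Cavin2, Efna1, Naip2, Slc6a15, Fzd4, Rhoj, B3galt1 and Gda. Tgm2 encodes transglutaminase 2, which crosslinks proteins, and stood at 25.5, 54.1, 250.3, 28.7 and 186 CPM in HSCs and at 0 in LMPPs. HSCs of mouse10365 and mouse10384 were the highest, and HSCs were at least 1271-fold higher over the group (adjusted p = 0.000412). Aldh1a1, a retinaldehyde dehydrogenase, stood at 96.4, 60.5, 83.1, 58.2 and 89.1 CPM in HSCs and at 0 in LMPPs, at least 845-fold lower (adjusted p = 0.000696). Timp3, an inhibitor of matrix metalloproteases, stood at 30.8, 28.2, 55.2, 52.7 and 35.5 CPM and at 0, at least 441-fold lower (adjusted p = 0.00303). These 3 genes had counts in all HSC libraries and none in LMPPs.

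Cavin2, Naip2, Fzd4, Rhoj and B3galt1 likewise had no count in any LMPP library. Cavin2 helps to shape caveolae, Naip2 is a sensor of bacterial proteins, Fzd4 is a Wnt receptor, Rhoj a small GTPase and B3galt1 a galactosyltransferase. Fzd4 varied most among HSCs, with 4.38, 50.1, 32.4, 32.6 and 6.48 CPM, and was at least 237-fold lower in LMPPs (adjusted p = 0.00864). The other 4 were at least 225-fold to 371-fold lower (adjusted p from 0.00431 to 0.0103). Efna1, a membrane ligand of Eph receptors, stood at 115, 81.7, 60.6, 61.7 and 90.4 CPM in HSCs with 1 count among LMPPs, a ratio of 2597-fold (95% counting interval 466 to 102634). Slc6a15, an amino acid transporter, had 1 count among LMPPs and Gda, which deaminates guanine, had 4. Gda stood at 59.7, 165, 157, 123 and 114 CPM in HSCs and at 0.294, 0.267, 0, 0 and 0 CPM in LMPPs. All 24 leaders in both directions were called also without each of the 5 mice in turn.

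A minority of the listed regulators that maintain stem cells passed edgeR's test, and all that passed fell. Of 22 such genes, all tested, 9 fell and 13 did not pass, with a median log2 change of -1.18. From log2(CPM + 1), the list median was -0.64, -0.58, -2.12, -1.07 and -1.64 in the 5 mice. The list held 7 to 9 calls when 1 mouse was left out. Without both mouse10365 and mouse10384, a setting chosen after seeing the data, it held 7 calls, with a median log2 change of -0.83. DESeq2 called 13 of the 22, all lower, against 1004 lower of all 11365 tested genes. The fallen genes included Mecom, Meis1, Gata2, Tal1, Prdm16, Mycn, Hoxb5 and Mllt3. Hoxb5, a homeobox gene known for its restriction to long-term HSCs, went from 18.4, 10.4, 22.5, 19.9 and 39.6 CPM to 1 count in 1 LMPP library, a ratio of 738-fold (95% counting interval 132 to 29193) (adjusted p = 0.00153). Mllt3, a reader of acetylated histones that sustains HSCs, was the highest of the 9 in HSCs, at 699, 732, 605, 740.2 and 670.4 CPM. In LMPPs it was at 61.6, 17.9, 26.1, 21.7 and 24.8 CPM, a log2 change of -4.59 ± 0.31 (SE, adjusted p = 2.69e-05), with mouse10360 the highest. Mecom encodes the zinc-finger factor EVI1 and went from 245, 313, 331, 260.1 and 356 CPM to 26.2, 21.2, 24.3, 47.2 and 31.0 CPM, a log2 change of -3.32 ± 0.27 (SE, adjusted p = 7.12e-05).

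Gata2, a zinc-finger factor of stem and early myeloid cells, went from 132, 91.8, 364, 78.7 and 286 CPM to 22.1, 14.7, 45.9, 21.8 and 21.5 CPM, a log2 change of -2.71 ± 0.29 (SE, adjusted p = 0.000486). HSCs of mouse10365 and mouse10384 were again the highest, yet all 5 mice fell. Meis1, a homeobox cofactor, kept the most: it stood at 566, 576, 569.9, 638 and 522 CPM in HSCs and 331, 295, 306, 278 and 254 CPM in LMPPs. Its log2 change of -0.92 ± 0.18 (SE, adjusted p = 0.0151) was lost without mouse10361 or mouse10376 (adjusted p from 0.0649 to 0.0745). Prdm16 fell by a log2 change of -1.75 ± 0.36, and this call was lost without mouse10361, mouse10376 or mouse10384 (adjusted p from 0.0588 to 0.065). Tal1 and Mycn changed by -1.92 ± 0.34 and -1.69 ± 0.28 on the log2 scale and stayed called without any 1 mouse. Hlf, a leucine-zipper factor of HSCs, did not pass, at a log2 change of -0.89 ± 0.25 (SE, adjusted p = 0.0686). Its HSC values of 470.4, 355, 932, 567 and 964 CPM overlapped the LMPP values of 369, 322, 230.0, 292 and 402 CPM. Fgd5, used as an HSC reporter gene, did not pass either (log2 change -2.92 ± 0.87 (SE, adjusted p = 0.0826)), with 66.4, 81.0, 98.1, 43.0 and 96.5 CPM in HSCs and 16.2, 8.93, 0, 9.93 and 29.4 CPM in LMPPs. Runx1 and Hoxa9, which act in stem cells and progenitors alike, changed by -0.25 and 0.52 without passing (adjusted p = 0.568 and 0.15).

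Most listed surface proteins and other markers of HSCs fell. Of 30 tested, 21 fell and 1 rose, with a median log2 change of -2.78 and 29 of 30 negative. Tek, the angiopoietin receptor by which HSCs sense their niche, stood at 107, 34.3, 88.7, 47.3 and 85.2 CPM in HSCs and 0.147, 0.133, 0.179, 0 and 0.194 CPM in LMPPs. LMPPs held 4 counts of Tek in all, and the adjusted p was 2.5e-05. Clec1a, a C-type lectin, went from 19.9, 42.7, 63.3, 24.0 and 32.2 CPM to 1 count, a ratio of 1167-fold (95% counting interval 209 to 46129). Ifitm1, an interferon-inducible membrane protein, had the highest level in HSCs of the 21, at 2928 ± 397 CPM against 559 ± 261 CPM in LMPPs (SD, n = 5). Its log2 change was -2.48 ± 0.30 (SE, adjusted p = 0.00104).

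Esam, an adhesion protein of HSCs and endothelium, went from 189, 81.4, 233, 116 and 256 CPM to 1.03, 5.33, 5.89, 0.153 and 4.26 CPM, a log2 change of -5.91 ± 0.65 (SE, adjusted p = 0.00062). Pdzk1ip1, Socs2, Cd9 and Mmrn1 fell by log2 changes of -3.75 ± 0.26, -4.35 ± 0.28, -2.43 ± 0.28 and -2.18 ± 0.22. Socs2 dampens cytokine signalling, and Mmrn1 is a carrier of coagulation factor V in platelets. The 1 marker that rose was Vldlr, a lipoprotein receptor, with a log2 change of 1.45 ± 0.37 (SE, adjusted p = 0.0471). Its populations overlapped, at 50.6, 39.7, 31.7, 81.4 and 103 CPM and 109, 116, 239.8, 100.4 and 236 CPM, and the call was lost without mouse10360, mouse10361, mouse10365 or mouse10384 (adjusted p from 0.0726 to 0.125). The count of fallen markers was 18 to 21 when 1 mouse was left out.

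A part of the genes of megakaryocytes and platelets fell. Of 24 listed, 16 were tested, of which 6 fell and 1 rose, with a median log2 change of -2.87. DESeq2 called 12 of the 16 lower and 1 higher. Vwf encodes von Willebrand factor, which also marks platelet-biased HSCs. It stood at 29.8, 41.4, 183, 14.3 and 95.2 CPM in HSCs and 5.001, 0, 0, 0.153 and 0 CPM in LMPPs, where only mouse10360 was above 1 CPM. Rab27b, needed for platelet granules, went from 100.5, 57.5, 63.2, 79.7 and 64.4 CPM to 2.06, 7.47, 0, 0 and 3.48 CPM, a log2 change of -5.57 ± 1.02 (SE, adjusted p = 0.0116). Pf4, platelet factor 4, fell by -3.64 ± 0.92 (SE, adjusted p = 0.0457) on the log2 scale. The call of Vwf was lost without mouse10365 (adjusted p = 0.0564) and that of Pf4 without mouse10361, mouse10365 or mouse10384 (adjusted p from 0.0917 to 0.15), which left 4 fallen genes of the list without mouse10365. Plek, the substrate of protein kinase C known from platelets, is also expressed in leukocytes and rose from 8.26, 18.2, 9.18, 7.58 and 3.78 CPM to 244, 272, 371, 161 and 266 CPM, a log2 change of 4.96 ± 0.39 (SE, adjusted p = 6.54e-05). Of 17 listed erythroid genes 6 were tested and none was called. Their median log2 change was -0.77, 1 of the 6 had an unadjusted p under 0.05, and DESeq2 called 1 and limma voom 0.

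Imprinted genes are expressed from 1 parental allele. Of 18 tested members 7 fell and none rose, with a median log2 change of -1.25. The 7 were Grb10, Phlda2, Cdkn1c, Meg3, H19, Ndn and Sgce. Grb10, an adaptor that restrains insulin receptor signalling, stood at 78.4, 137, 208, 104 and 149 CPM in HSCs and 0.735, 0.133, 0, 0 and 0.387 CPM in LMPPs, a log2 change of -8.88 ± 0.70 (SE, adjusted p = 6.54e-05). Cdkn1c encodes the cyclin-dependent kinase inhibitor p57, known for keeping HSCs quiescent. It went from 22.2, 12.4, 69.9, 9.22 and 27.5 CPM to 0.735, 1.73, 0.893, 1.22 and 0.194 CPM, a log2 change of -4.59 ± 0.87 (SE, adjusted p = 0.0135). Ndn, which encodes necdin, went from 67.4, 80.0, 87.2, 40.6 and 76.5 CPM to 15.7, 12.9, 15, 8.10 and 4.84 CPM, a log2 change of -2.64 ± 0.38 (SE, adjusted p = 0.00335).

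H19 and Meg3 are noncoding RNAs that were low even in HSCs, at 6.57, 4.03, 16.5, 6.35 and 6.12 CPM and 4.89, 2.35, 23.4, 5.12 and 17.5 CPM. LMPPs held 2 counts of H19 and 3 of Meg3, a ratio of 137-fold (95% counting interval 37.4 to 1137) and 127-fold (95% counting interval 42.9 to 617). The calls were lost for Cdkn1c without mouse10365 (adjusted p = 0.0899), for Meg3 without mouse10365 (adjusted p = 0.115), for H19 without mouse10360, mouse10361, mouse10365, mouse10376 or mouse10384 (adjusted p from 0.0554 to 0.0874) and for Sgce without mouse10360, mouse10361, mouse10365 or mouse10376 (adjusted p from 0.055 to 0.112). Without mouse10365 the list kept 3 calls, and Grb10, Phlda2 and Ndn were called without each mouse in turn.

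Several genes of lymphoid priming rose. Of 35 genes listed for lymphoid priming 32 were tested, of which 13 rose and 2 fell, with a median log2 change of 0.95. Dntt encodes terminal deoxynucleotidyl transferase, which adds bases at junctions of antigen receptor genes. Its levels were 13.8, 37.3, 23.6, 24.2 and 26.5 CPM in HSCs and 1257, 1319, 2892, 1233.7 and 1775 CPM in LMPPs, with mouse10365 the highest. The log2 change was 6.12 ± 0.34 (SE, adjusted p = 1.16e-05). Ighm, the constant region of immunoglobulin M, which is transcribed from the unrearranged locus in progenitors, went from 15, 22.9, 13.6, 13.53 and 10.4 CPM to 1437, 1562, 1658, 1145 and 1028 CPM. Its log2 change of 6.58 ± 0.26 (SE, adjusted p = 1.85e-06) shared the smallest adjusted p of the named genes with Mpo.

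Rag2, a subunit of the recombinase of antigen receptor genes, was near 1 CPM in HSCs and read in every LMPP library. Its values were 1.01, 1.34, 0.918, 0.205 and 2.52 CPM and 69, 54.9, 64.5, 41.3 and 97.3 CPM, a log2 change of 5.98 ± 0.50 (SE, adjusted p = 8.53e-05). Satb1, a chromatin organiser of lymphoid cells, went from 30.3, 10.1, 16.1, 7.79 and 41.6 CPM to 367, 361, 251, 295 and 502 CPM, a log2 change of 4.33 ± 0.32 (SE, adjusted p = 4.32e-05). Mn1 and Emb, an adhesion protein, rose by 3.11 ± 0.32 and 2.57 ± 0.29 on the log2 scale. Cd27, a costimulatory receptor, and Rhoh, a lymphoid GTPase, rose by 1.05 ± 0.22 and 1.64 ± 0.33. The call of Cd27 was lost without mouse10361, mouse10365 or mouse10376 (adjusted p from 0.0636 to 0.0744) and that of Rhoh without mouse10361 (adjusted p = 0.0673).

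Foxo1 and Zfp521 ran the other way. Foxo1 encodes a factor that later activates Il7r and Rag genes, and it went from 41.6, 60.9, 76.8, 32.2 and 85.7 CPM to 3.68, 16.7, 0.179, 1.07 and 16.6 CPM, a log2 change of -3.72 ± 0.83 (SE, adjusted p = 0.0274). Zfp521, an antagonist of B cell specification, fell by -1.81 ± 0.41 (SE, adjusted p = 0.0289). The call of Foxo1 was lost without mouse10360 or mouse10376 (adjusted p from 0.0552 to 0.0701) and that of Zfp521 without mouse10360, mouse10361, mouse10376 or mouse10384 (adjusted p from 0.0729 to 0.127). Ikzf1, the Ikaros factor on which lymphoid priming depends, and Notch1 did not pass, at log2 changes of 0.77 and 1.93 (adjusted p = 0.0659 and 0.103).

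Genes of committed lymphocytes were mostly too low to test. Of 20 B lineage genes 6 were tested and 1, Rag2, rose. Of 17 T lineage and Notch genes 5 were tested. Lck, a kinase of the T cell receptor, rose from 28.5, 11.4, 30.4, 17.2 and 29.7 CPM to 120.3, 158, 157, 159 and 70.8 CPM (log2 change 2.58 ± 0.36 (SE, adjusted p = 0.00303)). Gata3, a factor of T cells that also acts in HSCs, fell from 51.6, 39.3, 122, 28.1 and 63.5 CPM to 12.502, 11.7, 4.64, 2.60 and 8.90 CPM (log2 change -2.86 ± 0.51 (SE, adjusted p = 0.00976)). Chemokine receptors for thymus and lymph node rose: Ccr9 went from 0.169, 1.01, 0.306, 1.02 and 0.360 CPM to 45.4, 150.1, 104, 61.4 and 63.5 CPM, and Ccr7 from 0.169, 0.336, 0.918, 0.615 and 0.360 CPM to 20.7, 82.9, 29.5, 54.5 and 18.8 CPM. Their log2 changes were 7.28 ± 0.53 (SE, adjusted p = 3.98e-05) and 6.26 ± 0.64 (SE, adjusted p = 0.000355).

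In all, 6 of 19 tested homing and adhesion genes rose and 2 fell. Cd34, a sialomucin of progenitors, had the highest level of the 6, at 428 ± 69.8 CPM in HSCs and 1874 ± 555 CPM in LMPPs (SD, n = 5). Its log2 change was 2.14 ± 0.25 (SE, adjusted p = 0.000969). Itgal, the alpha chain of the integrin LFA-1, rose by 5.66 ± 0.93 and Selplg, the P-selectin ligand, by 0.97 ± 0.22. Selplg was lost without mouse10360, mouse10361, mouse10365 or mouse10376 (adjusted p from 0.0782 to 0.112). The 2 that fell were Esam and Jam3, a junctional adhesion protein with a log2 change of -3.51 ± 0.57 (SE, adjusted p = 0.00575). In the SLAM family of receptors, 3 of 5 tested members rose (Cd48, Cd244a and Ly9) and Slamf1 fell. Cd244a, the receptor of CD48, went from 0.674, 0.672, 0.765, 0.410 and 0.180 CPM to 60.7, 53.7, 86.6, 30.4 and 66.4 CPM, a log2 change of 6.80 ± 0.57 (SE, adjusted p = 8.53e-05). Ly9 was lost without mouse10361, mouse10365 or mouse10376 (adjusted p from 0.0765 to 0.0967).

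Myeloid genes moved in both directions. Of 22 neutrophil and monocyte genes 11 were tested, of which 4 rose (Mpo, Ctsg, Csf3r and Cebpa) and 2 fell (Lyz2 and Igsf6). Cebpa encodes a factor that directs granulocyte and monocyte development. It had 1 count among HSCs and 6.18, 12, 11.4, 9.93 and 10.1 CPM in LMPPs, a ratio of 256-fold (95% counting interval 45.6 to 10152). Csf3r, the receptor of granulocyte colony-stimulating factor, rose by 1.46 ± 0.31 (SE, adjusted p = 0.0227) on the log2 scale, with overlapping values of 33.7, 28.9, 72.8, 20.3 and 63.0 CPM and 135, 76.7, 214, 78.7 and 67.7 CPM. Lyz2, lysozyme, fell from 707, 965, 490.4, 1089 and 724 CPM to 358, 331, 329, 433 and 432 CPM, a log2 change of -0.98 ± 0.23 (SE, adjusted p = 0.0315). Mpo and Ctsg stayed called without any 1 mouse. The other 4 did not: Cebpa was lost without mouse10376 (adjusted p = 0.0519), Csf3r without mouse10360, mouse10361, mouse10365 or mouse10376 (adjusted p from 0.063 to 0.0999), Lyz2 without mouse10360, mouse10361 or mouse10376 (adjusted p from 0.088 to 0.126) and Igsf6 without mouse10360, mouse10361, mouse10365, mouse10376 or mouse10384 (adjusted p from 0.0588 to 0.109).

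Markers of other cells that a pool could hold were read in both populations, and 5 of them were called higher in LMPPs: Nkg7, Ighd, Cd163, Plvap and H2-DMa. Summed over 12 genes of NK and innate lymphoid cells, HSC libraries held 41.6 to 103 CPM and LMPP libraries 306 to 888 CPM. Most of the LMPP sum was Nkg7, a granule protein that rose from 55.3, 27.2, 11.2, 60.9 and 46.3 CPM to 462, 523, 278, 704 and 866 CPM (log2 change 3.99 ± 0.30 (SE, adjusted p = 5.13e-05)), while 6 of the 12 had no count in any LMPP library. In HSCs Nkg7 was a smaller part, from 11.2 of 41.6 CPM in mouse10365 to 46.3 of 70.9 CPM in mouse10384. Summed over 10 genes of mature B and plasma cells, HSCs held 2.02 to 29.3 CPM and LMPPs 16.0 to 68.6 CPM, and 8 of the 10 were at 0 in LMPPs. Ighd was at most 0.672 CPM of the HSC sums. It was the larger part of the LMPP sum except in mouse10365, where it made 15.7 of 68.6 CPM. Ighd, the constant region of immunoglobulin D, went from 0.169, 0.672, 0.153, 0.410 and 0 CPM to 29.7, 33.3, 15.7, 12.8 and 45.7 CPM (log2 change 6.61 ± 0.96 (SE, adjusted p = 0.00343)). Macrophage genes summed to 3.96 to 21.5 CPM and 10.1 to 92.0 CPM, and stromal and endothelial genes to 141 to 228 CPM and 168 to 255 CPM. Of 10 tested genes of dendritic cells and MHC class II, H2-DMa, which loads peptides, rose by 1.11 ± 0.19 and Cd74, the invariant chain, fell by -1.48 ± 0.29, a call lost without mouse10361, mouse10365 or mouse10376 (adjusted p from 0.0517 to 0.0704). Cd163, a scavenger receptor of macrophages, went from 0.169, 0, 0, 1.23 and 0.180 CPM to 9.27, 4.27, 5.71, 11.3 and 4.06 CPM (log2 change 5.13 ± 1.28 (SE, adjusted p = 0.0425)). Plvap, a protein of endothelial fenestrae, had 2 counts among HSCs and 5.59, 4.53, 7.68, 6.11 and 2.52 CPM in LMPPs, a ratio of 68.8-fold (95% counting interval 18.7 to 572) (adjusted p = 0.0246). The call of Cd163 was lost without mouse10360, mouse10361, mouse10365, mouse10376 or mouse10384 (adjusted p from 0.068 to 0.129) and that of Plvap without mouse10360, mouse10361, mouse10365, mouse10376 or mouse10384 (adjusted p from 0.0608 to 0.156). The part of such cells in the rise of lymphoid and myeloid genes was not tested.

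**Figure D2:**
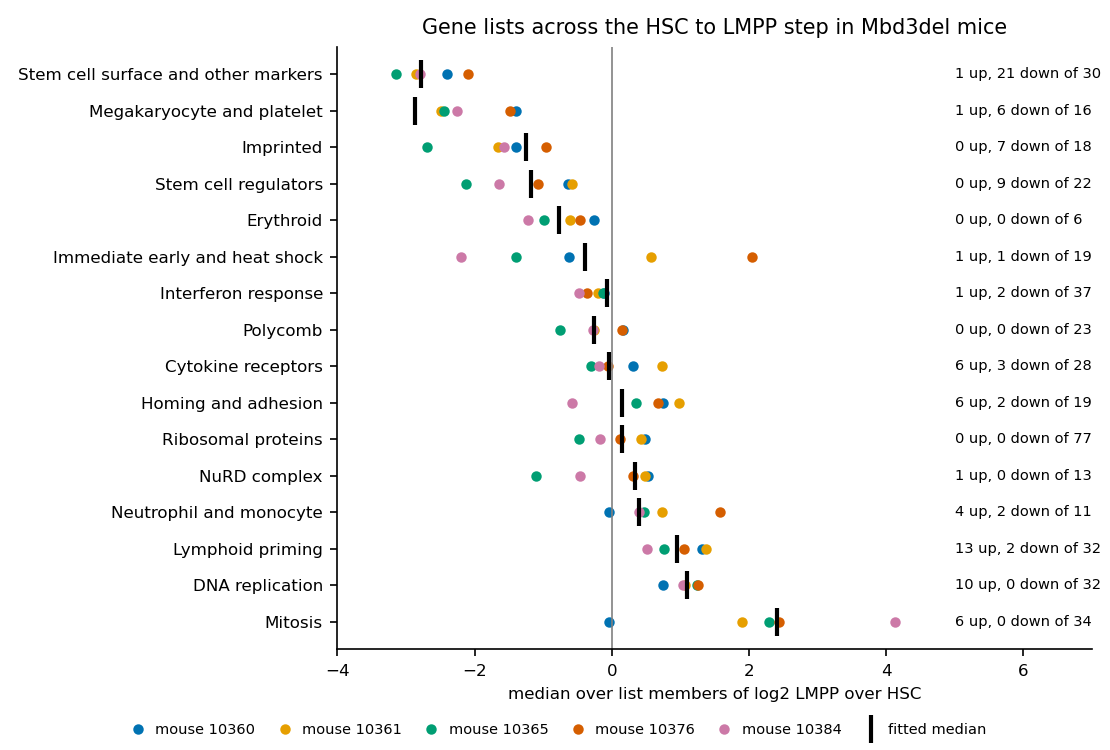
Median over the tested members of 16 gene lists of the log2 ratio of LMPP over HSC, as 1 point per mouse from log2(CPM + 1) and as a black bar from the edgeR fit, which does not add 1 CPM and so lies further out where genes are low. The text at the right counts the genes called up and down, and the stem cell lists lie to the left of 0 in 5 of 5 mice while Lymphoid priming and DNA replication lie to the right of 0 in 5 of 5.

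A minority of the genes of DNA replication and of mitosis passed edgeR's test, all of them higher in LMPPs, against 2.67% of all tested genes. With DESeq2 a majority passed, 21 of 32 replication and 25 of 34 mitosis genes, all higher, against 740 of all 11365 genes. All 32 tested replication genes had a positive log2 change, with a median of 1.10, and 10 of them rose. All 34 mitosis genes were positive too, with a median of 2.41, and 6 rose, although the mitosis list was not higher in LMPPs of mouse10360. Many of these genes are known to share promoter elements, the CCAAT box with the cell cycle genes homology region in mitosis genes and E2F sites in replication genes. Promoters of the called mitosis genes found in RefSeq and of Mcm6 are therefore shown, from 250 bases before to 30 after the start on GRCm38.p6, 5′ to 3′ in the direction of the gene, with capitals for the CCAAT box, for the element TTTGAA and for the E2F motifs TTTGGCGC and GGCGGGAA on either strand. They lie at chr11:99024160-99024439 (minus strand) for Top2a, chr19:37376132-37376411 (plus strand) for Kif11, chr9:61946770-61947049 (minus strand) for Kif23 and chr1:128359676-128359955 (minus strand) for Mcm6.
Top2a: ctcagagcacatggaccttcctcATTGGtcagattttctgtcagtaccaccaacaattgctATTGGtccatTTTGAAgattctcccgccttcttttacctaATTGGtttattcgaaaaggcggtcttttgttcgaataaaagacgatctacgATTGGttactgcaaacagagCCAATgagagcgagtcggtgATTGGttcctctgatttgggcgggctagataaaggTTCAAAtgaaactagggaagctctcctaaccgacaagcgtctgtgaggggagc
Kif11: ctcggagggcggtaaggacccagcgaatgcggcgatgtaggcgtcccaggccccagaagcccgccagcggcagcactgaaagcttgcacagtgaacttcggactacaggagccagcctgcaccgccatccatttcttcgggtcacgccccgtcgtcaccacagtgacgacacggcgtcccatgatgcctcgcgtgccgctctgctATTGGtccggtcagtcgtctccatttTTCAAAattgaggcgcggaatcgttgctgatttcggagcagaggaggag
Kif23: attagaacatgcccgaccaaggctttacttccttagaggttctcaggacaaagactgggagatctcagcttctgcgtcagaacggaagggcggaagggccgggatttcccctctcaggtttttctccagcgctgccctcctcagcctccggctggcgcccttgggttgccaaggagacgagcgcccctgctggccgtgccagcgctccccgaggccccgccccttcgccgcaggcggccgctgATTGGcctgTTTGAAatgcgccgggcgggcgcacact
Mcm6: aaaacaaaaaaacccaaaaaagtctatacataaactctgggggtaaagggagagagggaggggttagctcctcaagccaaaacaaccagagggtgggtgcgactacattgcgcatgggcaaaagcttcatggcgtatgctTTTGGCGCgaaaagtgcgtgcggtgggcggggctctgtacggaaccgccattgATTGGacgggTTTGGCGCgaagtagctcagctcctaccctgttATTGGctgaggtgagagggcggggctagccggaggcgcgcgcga
Top2a held 6 matches to CCAAT and 2 to TTTGAA, and Kif11 and Kif23 held 1 of each. Mcm6 held 2 matches to CCAAT, 2 to TTTGGCGC and none to TTTGAA. Of the 34 mitosis genes 29 had a RefSeq promoter, and 17 of these (58.6%) held both CCAAT and TTTGAA, against 7.37% of 27025 genes. TTTGGCGC or GGCGGGAA stood in 8 of 26 replication promoters (30.8%) and in 0 of 29 mitosis promoters, against 2.90% of all genes. CCAAT alone is common, at 39.7% of all genes. A match describes letters and not a bound site.

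Top2a, the topoisomerase that untangles chromosomes, had the highest level of the called mitosis genes. It went from 91.0, 53.5, 32.1, 44.1 and 33.7 CPM in HSCs to 146, 245, 204, 217 and 234 CPM in LMPPs, a log2 change of 2.20 ± 0.35 (SE, adjusted p = 0.00565). Kif20a, a kinesin of cytokinesis, had the largest fold, from 1.85, 0, 0.459, 1.64 and 0.720 CPM to 20.004, 29.9998, 46.1, 57.8 and 37.7 CPM, a log2 change of 5.57 ± 0.80 (SE, adjusted p = 0.00338). Kif23, of the central spindle, went from 33.4, 19.8, 36.9, 43.0 and 43.0 CPM to 105, 113, 117, 101 and 94.8 CPM, a log2 change of 1.69 ± 0.28 (SE, adjusted p = 0.0068), and was even among mice. Ccna2, the S and G2 phase cyclin, went from 48, 17.5, 16.5, 4.92 and 3.42 CPM to 97.7, 107, 139, 61.0 and 70.4 CPM, a log2 change of 2.98 ± 0.51 (SE, adjusted p = 0.00819). HSCs of mouse10360 were the highest for Top2a and Ccna2.

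Kif11, a spindle kinesin, and Aurkb, a kinase of chromosome segregation, rose by 2.56 ± 0.61 and 4.59 ± 1.11. The call of Kif11 was lost without mouse10361, mouse10365 or mouse10384 (adjusted p from 0.0566 to 0.146) and that of Aurkb without mouse10361, mouse10365, mouse10376 or mouse10384 (adjusted p from 0.0662 to 0.165). Mki67, the proliferation antigen Ki-67, did not pass (log2 change 2.22 ± 0.79 (SE, adjusted p = 0.146)), at 39.8, 56.1, 20.8, 10.7 and 2.52 CPM and 43.4, 101, 62.5, 125 and 140.1 CPM. The HSC library of mouse10360 stood apart in this list: summed CPM over the mitosis genes was 1630.3, 747, 566, 417 and 282 in HSCs and 1409, 2612, 2197, 2165 and 3178 in LMPPs. The median log2 ratio over the list was -0.04, 1.89, 2.29, 2.43 and 4.12 in the 5 mice. The list held 15 calls without mouse10360, 4 without mouse10361, mouse10365 or mouse10384, 5 without mouse10376, and none without both mouse10365 and mouse10384.

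**Figure D3:**
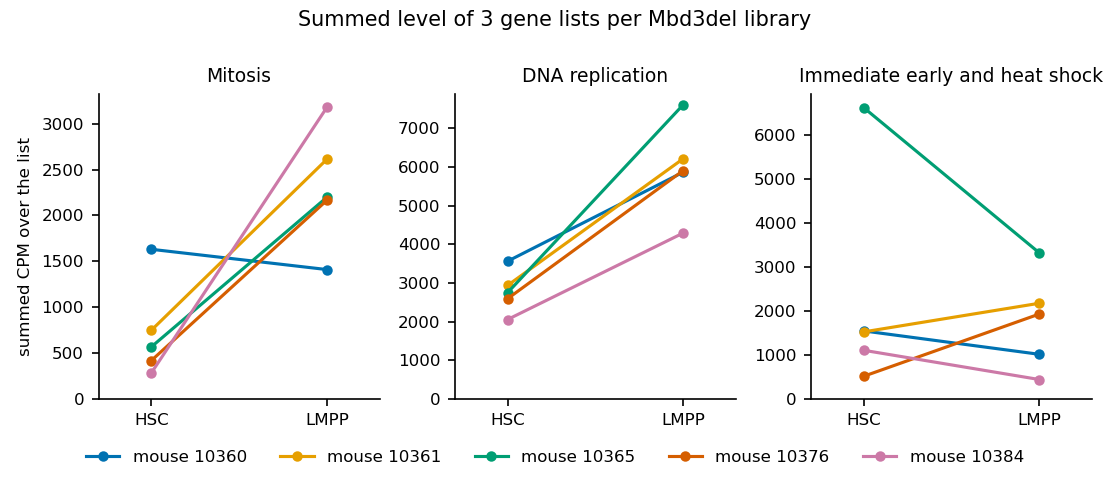
Summed CPM over the genes of 3 lists (vertical axes, each from 0) in the HSC and LMPP library of each Mbd3del mouse, with 1 coloured line per mouse. Replication genes rise in 5 of 5 mice, mitosis genes rise in all but mouse10360, and immediate early and heat shock genes are highest in the HSC library of mouse10365.

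Replication genes were more even among mice, with list medians of 0.74, 1.07, 1.24, 1.25 and 1.03. Mcm6, a subunit of the replicative helicase, was the highest, at 511, 319, 427, 352 and 357 CPM in HSCs and 1027, 1297, 1871, 973 and 628 CPM in LMPPs (log2 change 1.54 ± 0.24 (SE, adjusted p = 0.00478)). Its partners Mcm4, Mcm5 and Mcm7 rose by 1.57 ± 0.25, 1.46 ± 0.22 and 1.55 ± 0.26 and Rrm1, of ribonucleotide reductase, by 1.80 ± 0.29. These 5 stayed called without any 1 mouse. Rrm2, the regulated subunit of that enzyme, had the largest fold, at 2.85 ± 0.66, but overlapping values of 91.9, 35.3, 5.35, 28.9 and 2.16 CPM and 171, 152, 149, 115 and 66.2 CPM.

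The other called replication genes were Mcm3, Tk1 (thymidine kinase), Lig1 (DNA ligase) and Cdc45 (helicase activator), at 1.0 ± 0.24, 1.71 ± 0.43, 1.28 ± 0.26 and 2.37 ± 0.50. The call was lost for Rrm2 without mouse10361, mouse10365, mouse10376 or mouse10384 (adjusted p from 0.0517 to 0.101), for Mcm3 without mouse10360, mouse10361, mouse10365 or mouse10376 (adjusted p from 0.0504 to 0.135) and for Tk1 without mouse10361, mouse10365, mouse10376 or mouse10384 (adjusted p from 0.0957 to 0.14). It was lost for Lig1 without mouse10360, mouse10365 or mouse10376 (adjusted p from 0.0524 to 0.0707) and for Cdc45 without mouse10376 or mouse10384 (adjusted p from 0.0567 to 0.0668). The list held 5 to 9 calls when 1 mouse was left out, with 5 without mouse10376 and 6 without mouse10365. Pcna, the replication clamp, did not pass (log2 change 0.61 ± 0.21 (SE, adjusted p = 0.133)). Without the mouse as a block Aurkb, Mcm3, Rrm2 and Tk1 did not pass (adjusted p from 0.0670 to 0.135).

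Of 14 tested G1 cyclins, kinases and inhibitors 12 did not pass, 1 rose and 1 fell, and of 10 tested genes of the Myc network 3 were called. Cdk6, the kinase that drives exit from quiescence, was at 466, 428, 408, 545 and 432 CPM in HSCs and 1610.2, 1745, 1415, 2026 and 2541 CPM in LMPPs. It was higher in 5 of 5 mice, with a log2 change of 2.06 ± 0.21 (SE, adjusted p = 0.000355), and was the G1 gene that rose, while Cdkn1c was the one that fell. Myc, the growth factor-induced transcription factor, went from 520.3, 359, 423, 347 and 563 CPM to 1253, 1191, 1434, 797 and 775 CPM (log2 change 1.34 ± 0.22 (SE, adjusted p = 0.00572)), as its relative Mycn fell from 183, 242, 565, 312 and 333 CPM to 117, 75.2, 80.9, 105 and 84.0 CPM. Mga, an antagonist of Myc, fell by -0.75 ± 0.19 (SE, adjusted p = 0.0481), a call lost without mouse10360, mouse10361, mouse10365, mouse10376 or mouse10384 (adjusted p from 0.0537 to 0.171).

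Of 28 tested cytokine receptors 6 rose (Flt3, Il1r1, Csf3r, Ifnar2, Il10ra and Il10rb) and 3 fell, among them Tek and Csf2rb2. Il1r1, the interleukin 1 receptor, went from 2.36, 1.01, 2.29, 15 and 2.88 CPM to 172, 154, 178, 155 and 281 CPM, a log2 change of 5.89 ± 0.58 (SE, adjusted p = 0.000284). The highest HSC library, of mouse10376, remained far below every LMPP library. Flt3, Il1r1 and Tek stayed called without any 1 mouse. Other calls were lost: Ifnar2 without mouse10360 or mouse10365 (adjusted p from 0.0566 to 0.0587), Il10ra without mouse10360, mouse10361, mouse10365, mouse10376 or mouse10384 (adjusted p from 0.0529 to 0.138), Il10rb without mouse10360, mouse10361, mouse10365, mouse10376 or mouse10384 (adjusted p from 0.0669 to 0.167) and Csf2rb2 without mouse10360, mouse10361, mouse10365 or mouse10384 (adjusted p from 0.105 to 0.204).

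Other subunits of NuRD were read in both populations. Of 13 tested 1 changed, a share near the 6.13% of all tested genes. Mta3, a subunit alternative to its paralogs in the complex, rose from 45.5, 24.9, 47.1, 21.5 and 43.2 CPM to 115, 133, 136, 79.9 and 116 CPM, a log2 change of 1.77 ± 0.27 (SE, adjusted p = 0.00389). Mbd2, the paralog of Mbd3 that binds methylated DNA and forms NuRD complexes of its own, did not pass, at 28.3, 63.5, 66.6, 42.0 and 55.4 CPM and 16.2, 34.5, 14.3, 20.3 and 36.0 CPM (log2 change -1.06 ± 0.37 (SE, adjusted p = 0.142)). Of 23 tested Polycomb genes none was called, 4 had an unadjusted p under 0.05, and DESeq2 called 2 and limma voom 1. Of 77 tested ribosomal protein genes none was called, 2 had an unadjusted p under 0.05, and DESeq2 and limma voom called 0. Of 90 nuclear genes of the respiratory chain Ndufa4 and Atp5b rose, by 1.32 ± 0.18 and 0.85 ± 0.21, a share near the 2.67% of all tested genes that rose. Atp5b was lost without mouse10360, mouse10361, mouse10365 or mouse10376 (adjusted p from 0.0995 to 0.142).

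Of 37 tested interferon-response genes 1 rose (Ifi27l2a) and 2 fell (Gbp4 and Gbp7), a share near the 6.13% of all tested genes, with a median log2 change of -0.07. Ifi27l2a was lost without mouse10361, mouse10376 or mouse10384 (adjusted p from 0.0676 to 0.0924), Gbp4 without mouse10360, mouse10361, mouse10365 or mouse10376 (adjusted p from 0.0756 to 0.1) and Gbp7 without mouse10360, mouse10361 or mouse10365 (adjusted p from 0.0548 to 0.068). Immediate early and heat shock genes, which can respond to handling of cells, varied among mice. Their summed CPM was 1546, 1524, 6629, 514 and 1105 in HSCs and 1013, 2176, 3323, 1931 and 439 in LMPPs, and the list median ran from -2.19 to 2.04 over mice. Of 19 tested Btg2 rose and Klf2 fell, against 6.13% of all tested genes called. Klf2, a quiescence factor, stood at 4.38, 3.70, 142, 5.33 and 2.88 CPM in HSCs, where mouse10365 carried most of it, and was lost without mouse10365 (adjusted p = 0.141). Btg2 was lost without mouse10361, mouse10365, mouse10376 or mouse10384 (adjusted p from 0.063 to 0.107). Id1, an inhibitor of E proteins, was at 11.6, 21.9, 17.3, 13.9 and 5.94 CPM in HSCs and at 0 in LMPPs, at least 142-fold lower (adjusted p = 0.0216), and was lost without mouse10361 or mouse10365 (adjusted p from 0.0582 to 0.0622).

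The later progenitors of the same mice put these levels in order. All-lymphoid progenitors (ALPs) carry IL-7Ra without Ly6D, B cell-biased lymphoid progenitors (BLPs) carry both, and the LMPP libraries are shared with the step above, so these values are a description. Mecom averaged 301, 29.97, 3.73 and 0.223 CPM in HSCs, LMPPs, ALPs and BLPs, lower at each later stage. Mllt3 averaged 689, 30.4, 12.3 and 18.5 CPM, with most of its fall before the LMPP. Dntt averaged 25.1, 1695, 6717 and 4082 CPM, so that the LMPP held an intermediate level. Rag2 averaged 1.20, 65.4, 302 and 342 CPM. Il7r stood at 2.05, 1.72, 385 and 597 CPM and Ly6d at 16.6, 12.3, 269 and 9902 CPM. Il7r was thus higher on average in ALPs and BLPs, and Ly6d was highest in BLPs. The Ly6d transcript was also higher in ALPs than in LMPPs, although ALPs were gated as cells without Ly6D protein. Sema3d averaged 0, 59.7, 3.05 and 1.93 CPM and was thus highest on average in LMPPs. Cd34 averaged 428, 1874, 738 and 165 CPM and likewise was highest on average there.

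**Figure D4:**
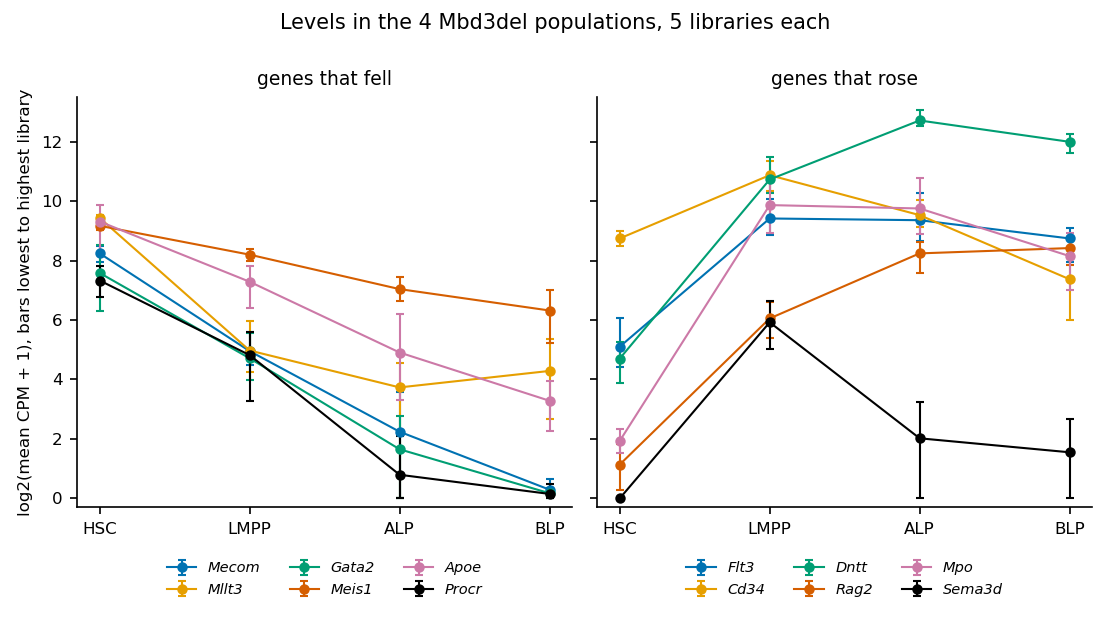
Mean level of 6 genes that fell and 6 that rose from HSC to LMPP in the 4 Mbd3del populations, as log2(mean CPM + 1), with bars from the lowest to the highest of 5 libraries. Dntt goes from 25.1 CPM in HSCs to 1695 CPM in LMPPs and higher in ALPs, whereas Sema3d peaks at 59.7 CPM in LMPPs and Mecom declines from 301 CPM throughout.

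The same step was fitted in the control mice, which share no library with the Mbd3del mice. The LMPP library of control mouse10372 stood apart there, with a mitochondrial share of 7.75% against 3.56% to 4.85% in the other control LMPP libraries and 9566 genes of at least 5 counts against 10876 to 11990. In control mice 559 of 11043 tested genes changed (5.06%), 262 higher in LMPPs (2.37%) and 297 lower (2.69%). Changed in both genotypes were 325 genes, which are 46.6% of the Mbd3del and 58.1% of the control list, and all 325 changed in the same direction. Without control mouse10372 the control step held 564 called genes, of which 326 were called in Mbd3del mice. Leaving out another control mouse lowered it to 280 (mouse10357), 296 (mouse10358), 267 (mouse10380) or 211 (mouse10381). Over 10758 genes tested in both, Pearson's r of the log2 changes was 0.757. This is a description across genes, which are not independent replicates. Of 649 genes called in Mbd3del mice and tested in control 640 had the same sign in control, and the other 9 were Amz2, Gtpbp4, Lat, Mars, Mga, Prkaa2, Sh3kbp1, Slc23a2 and Tnfrsf26. These 9 were picked out by their values.

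**Figure D5:**
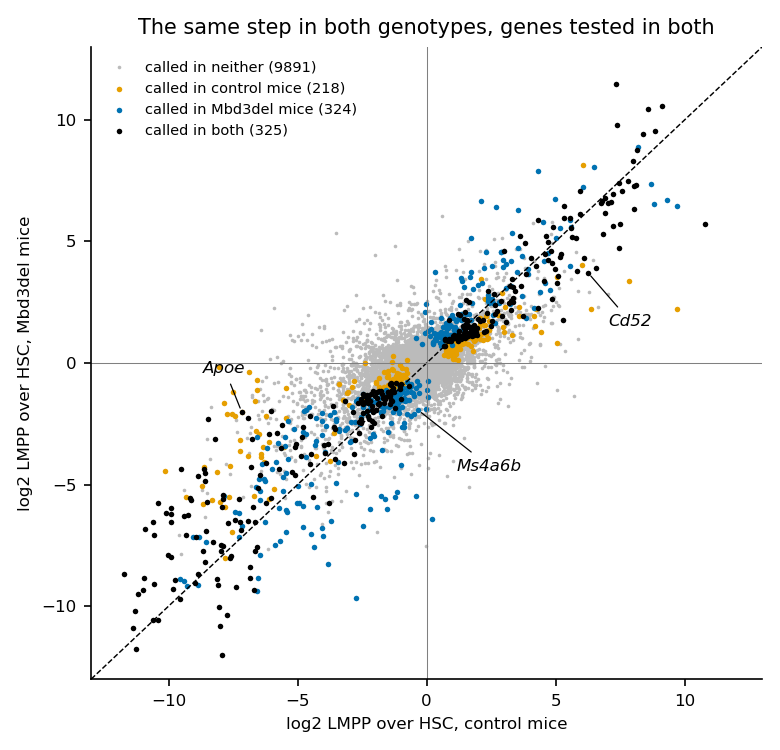
Log2 change from HSC to LMPP of 10758 genes in control mice (horizontal) and in Mbd3del mice (vertical), with the line of equal change dashed and genes coloured by the genotype in which they were called. The 325 genes called in both lie in the lower left and upper right, and Apoe, Cd52 and Ms4a6b, among the genes named for a small p of the difference, are called out.

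No gene passed the test of the difference between the genotypes (interaction of stage and genotype, 12576 genes tested, 0.0% called). An unadjusted p under 0.05 was found for 499 genes, fewer than the 629 expected at that threshold if no gene differed. DESeq2 called 84 (64 with a more positive change in Mbd3del mice, 20 more negative) and limma voom called 0. Leaving out the control mouse10357 gave 2 calls and leaving out control mouse10372 gave 0. The absence of calls does not show that the steps were alike: in simulated counts the test recovered 21% of genes whose step differed by 2 log2 units and 1% of those that differed by 1.

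The smallest adjusted p of the difference belonged to Apoe, apolipoprotein E, a carrier of lipids. Apoe stood at 689, 507, 939, 308 and 731 CPM in HSCs and 96.0, 151, 225, 219.7 and 84.0 CPM in LMPPs of Mbd3del mice, a log2 change of -2.01 ± 0.35 (SE, adjusted p = 0.00814). In control mice it averaged 568 ± 169 CPM in HSCs and 7.33 ± 11 CPM in LMPPs (SD, n = 5), a log2 change of -7.16 ± 0.72. HSCs and LMPPs did not overlap in either genotype, and the difference of the steps was 5.17 ± 0.77 (adjusted p = 0.117, not called, and 2.39e-06 in DESeq2). Cd52, a glycoprotein of lymphocytes, rose by 3.71 ± 0.30 in Mbd3del and by 6.26 ± 0.51 in control mice, a difference of -2.55 ± 0.54 (adjusted p = 0.632). The next genes by p that were more positive in Mbd3del mice were Serpinf1, at 1.30 ± 0.26, and the unnamed gene model E430018J23Rik (adjusted p = 0.632 for both). Atp8b4 and Ms4a6b were more negative, at -6.21 ± 1.53 and -1.59 ± 0.40 (adjusted p = 0.949 for both). Ms4a6b fell in Mbd3del mice from 161, 147, 97.6, 197 and 97.4 CPM to 46.2, 42.4, 13.7, 47.5 and 35.0 CPM, and averaged 171 ± 46.1 CPM and 133 ± 63.9 CPM in control mice.

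No member of any list passed the test of the difference, and the medians of both genotypes are given as a description. Of 10758 genes tested in both, 6229 (57.9%) had the smaller absolute log2 change in Mbd3del mice. Over members tested in both, the median log2 change was -1.18 against -1.78 for stem cell regulators and -2.78 against -4.19 for stem cell surface and other markers. It was 1.10 against 1.58 for DNA replication and 2.41 against 2.95 for mitosis. Mmrn1, for example, changed by -2.18 in Mbd3del and -4.52 in control mice, with an adjusted p of the difference of 0.949. Dntt, Ighm and Mpo had changes of 6.12, 6.58 and 8.31 in Mbd3del and 5.94, 6.75 and 8.01 in control mice. For lymphoid priming the medians were 0.81 and 0.64. Without control mouse10372 the control medians were -1.56, -4.10, 1.64, 3.22 and 0.87 for the same 5 lists in that order, and the lymphoid priming median of Mbd3del mice, over 31 genes, was 0.85. Without control mouse10358 the control median for mitosis was 2.27, below that of Mbd3del mice. Without mouse10360 the Mbd3del median for mitosis was 3.01, above the control median of 2.95. It was 1.795 to 2.55 without 1 of the other Mbd3del mice. The order of the genotypes for mitosis thus depended on single mice. Over all genes tested in both, the medians were 0.00 and -0.06.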

How the data were processed

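RNA was measured by Smart-seq2 in pools of sorted cells. Per the file header, the authors' single table holds raw counts of reads for all 40 libraries. The submitters' processing notes name the aligner STAR 2.5.2b, the counter HTSeq 0.6.1p1 and the build GRCm38, while the annotation and the strand option were not stated. Rows named repRegion, whose meaning the sources do not explain, were left out (79325 rows, 0.386% to 2.28% of a library's counts). Of 49585 gene rows 49326 matched GENCODE M21 by identifier, from which symbols and coordinates (1-based) were taken. The protocol does not mark strand, so counts of overlapping, antisense and near-identical genes (immunoglobulin segments, Gbp, Gimap and Ly6 families) are uncertain.

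The samples were grouped by their labels. Each step was tested in R 4.3.3 by edgeR 4.0.16, using its quasi-likelihood F test (TMM scaling, default filter at a minimum count of 10 and total of 15, robust estimates), with LMPP over HSC, the mouse as a block and Benjamini-Hochberg adjustment over all genes tested, at 0.05. The difference between genotypes was an interaction term over 20 libraries of 10 mice. The SE given with a log2 change was derived from that test, as the absolute log2 change divided by the square root of F. The labels give both populations of a mouse its number, so the pairing comes from the animal. Correlations of deviations between the HSC and LMPP library of a mouse were -0.02, 0.06, 0.17, 0.12 and -0.01, and in 2 of 5 mice the own library was the best match. A count of 3 corresponds to 0.400 to 1.01 CPM. Ratios against a population at 0 are lower bounds against 3 counts over the group, and 95% intervals of ratios cover counting error only. No pair of libraries agreed within sampling noise.

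Gene lists (38, with 917 genes) were described by counts and medians without a set test. The genes named first are the 12 per direction of largest fold among called protein-coding genes with at least 20 CPM in the higher population, without overlap, leaving out unnamed gene models and antigen receptor segments. Other named genes are the gate genes, list members and the 3 genes per direction of smallest p in the interaction. A few list members are not reported here. Members, lists and rules were chosen with earlier results of these data known. In data simulated for the step, the test recovered 14% of genes changed by 1 log2 unit and 60.6% of those changed by 2. Alternatives were other scalings, filters, estimators, DESeq2 1.42.0, limma 3.58.1 voom, no block, a test against a fold of 2, a fit on all Mbd3del libraries and leaving out mice. The promoter letters are from RefSeq.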

Additional observations from a re-analysis of the deposited data

Results flagged for a closer look

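In 9 of 77 sets of 5 values, 1 mouse lay further from the other 4 than Dixon's 95% limit for 5 values allows, and chance alone flags about 1 in 20 such sets. The values are log2 ratios of LMPP over HSC per mouse, from log2(CPM + 1). Cavin2 had -3.32 in mouse10376 against -5.70 to -5.21 in the others, and Gda had -5.55 in mouse10360 against -7.31 to -6.84. For the other 7 the value is the median over a gene list. The NK and innate lymphoid list had 0.86 in mouse10360 against 1.96 to 2.23, and the mature B and plasma cell list had 1.57 in mouse10376 against 3.88 to 4.39. List medians are over tested genes only, and each of these lists had just 2. The value of mouse10384 stood apart in glycolysis, at -0.63 against 0.19 to 0.37, and in the mitochondrially encoded genes, at 0.62 against -0.57 to -0.24. That of mouse10365 stood apart in the E proteins and Id list, at -0.68 against 0.13 to 0.26, in nuclear genes of the respiratory chain, at -0.39 against 0.06 to 0.23, and in histone genes, at -0.57 against 0.02 to 0.25. The HSC libraries of mouse10365 and mouse10384 also had the lowest mitochondrial shares. For the mitochondrially encoded list this share is no separate measure, as it sums the counts of mitochondrially encoded genes. In mouse10384 it was 3.09% in HSCs and 4.92% in LMPPs. The part of this in the values of the other lists was not tested.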

How the results depend on the processing

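The count of genes that changed from HSC to LMPP in Mbd3del mice (697) rose to 1744 with DESeq2 and to 1222 with the newer estimator of edgeR, fell to 284 when tested against a fold of 2, ranged from 329 to 540 when 1 mouse was left out, and was 279 without mouse10365 and mouse10384, a setting chosen after seeing the data. It stayed within 1.5 times under the other settings, from 655 with a filter at 50 counts to 1003 with no filter. No gene of the 697 changed direction in any of these. Fitted with all 20 Mbd3del libraries, 443 genes rose and 293 fell, against 303 and 394. Without the mouse as a block 766 genes were called, 618 of them among the 697. Of the 128 called genes followed one by one, 6 lost the call without this replicate block: Aurkb, Mcm3, Rrm2, Tk1, Btg2 and Gbp4. Ptprc, never called, turned to -0.0657 without mouse10365 and mouse10384. The control step (559 genes) ranged from 211 to 564 when 1 mouse was left out, also chosen after seeing the data. The test of the difference between genotypes, with 0 calls, gave 84 with DESeq2, 1 with the newer estimator, and 0 to 2 when 1 mouse was left out (2 without control mouse10357). The cause was not tested. Depth limits what can be said of genes at 0, which may be present below 3 counts, and 5 mice detect few changes of 1 log2 unit.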

Other observations

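In 2 further lists a few genes were called, against 6.13% of all tested genes. In the Gimap family of lymphocyte GTPases, 2 of 8 tested members fell. Gimap4 averaged 58.6 CPM in HSCs and 16.8 CPM in LMPPs, and Gimap8 averaged 80.0 CPM and 18.8 CPM. Their adjusted p was 0.0348 and 0.0170 in edgeR's test, Gimap4 was lost without mouse10360, mouse10365, mouse10376 or mouse10384 (adjusted p up to 0.131), and Gimap8 without mouse10365 or mouse10384 (0.0519 and 0.0534). Of 29 tested lysosome genes 2 were called, a share near that of all genes: Ctss, the protease cathepsin S, rose and Cd63, a tetraspanin of late endosomes, fell. Ctss averaged 63.2 CPM in HSCs and 142 CPM in LMPPs (log2 change 1.20 ± 0.22, adjusted p = 0.0117) and was lost without mouse10361 (adjusted p = 0.0533). Cd63 averaged 606 CPM and 266 CPM (log2 change -1.15 ± 0.18, adjusted p = 0.00517), fell in 5 of 5 mice and was called without each mouse in turn.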
